A study of Mus musculus with 15 samples.

Results

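Fragments of glutamine tRNAs were measured in mouse sperm as 2 entries of a small RNA table, GlnCTG and GlnTTG, out of 47 tRNA fragments (tRFs) and 215 entries in all. Each entry was taken by its name, which gives the amino acid and the anticodon of the parent tRNA, and the choice of glutamine was made with earlier results of these data known. GlnCTG thus stands for all fragments assigned to glutamine tRNAs with the anticodon CTG, and GlnTTG for those with TTG. Small RNA was sequenced from caudal epididymal sperm of C57BL/6 males (substrain C57BL/6NTac) in 15 libraries. F0 males had been fed a control diet (CO, n = 3) or an obesity-inducing diet (OID, n = 4) for 7 weeks. F1 males were sons of CO males (n = 4) or of OID males (n = 4) and of females reared on the control diet, and all of them ate the control diet themselves. The 2 F1 groups therefore differed in the diet of the father and not in their own. Sperm were treated with a lysis buffer that removes somatic cells, and RNA of 30 to 45 nucleotides was cut from a gel on which the barcoded samples had been pooled. The table holds small RNAs only, so the purity of the sperm could not be read from marker genes. Neither the age at collection nor shared fathers or litters are given in the sample labels, so p-values measure only the spread between these libraries.

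A tRNA carries an amino acid to the ribosome and reads the matching codon with its anticodon. Glutamine is encoded by CAG and CAA, and the CTG and TTG anticodons pair with them, so that GlnCTG and GlnTTG are isoacceptors, tRNAs for the same amino acid that differ in the anticodon. In TTG the first anticodon base is a uridine at the wobble position, which in glutamine, lysine and glutamate tRNAs carries a sulphur-containing modification. Sperm lose most of their cytoplasm during maturation, and fragments cut from tRNAs make up a large part of their small RNA, with pieces of the 5′ part of glycine and glutamate tRNAs as the best known. Glutamine fragments are a minor part of that pool.

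In the GRCm38.p6 assembly, RefSeq lists 16 nuclear glutamine tRNA loci with these anticodons, 10 for CTG and 6 for TTG, each of 72 bases. The CTG loci lie on chromosome 3 (4 loci), chromosome 13 (4 loci), chromosome 9 (1 locus) and chromosome 11 (1 locus). The TTG loci lie on chromosome 13 (3 loci), chromosome 11 (2 loci) and chromosome X (1 locus). Most sit among other tRNA genes, since 11 of the 16 have another tRNA gene within 100000 bases, and in one stretch of chromosome 13 there were 30. The locus n-TQctg9 at chr9:64738046-64738117 has 0 other tRNA genes within that distance and lies 290 bases from Rab11a, which encodes a GTPase of recycling endosomes. Another CTG locus, n-TQctg6 at chr11:69124607-69124678, lies 553 bases from Hes7, a transcription factor gene of the segmentation clock. Of the 16 loci, 14 overlap no other gene of the GENCODE M21 annotation. Among the TTG loci, n-TQttg2 at chr11:86262168-86262239 lies within an intron of Brip1os, a non-coding gene. The other exception, n-TQttg6 at chr11:95859172-95859243, lies within 4833417C18Rik outside its exons and shares 3 bases with an exon of Gm11527. The deposited values do not tell these loci apart. They also do not show whether fragments of the mitochondrial glutamine tRNA, which has the same anticodon, were counted in GlnTTG.

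The values are reads divided by a scaling factor of the library, and are neither absolute amounts nor divided by length. For both entries the fragments came from the same size slice. After subtraction of an offset of 0.5, every tRF value of a library was a whole multiple of the value of 1 read, so the reads behind each value could be recovered. The methods describe weights for shared reads, which would give fractions, and how they became whole numbers is not stated, so the recovered reads may be rounded weighted reads. Libraries held between 17966 and 5363471 tRF reads. The shallowest were CO F0 replicate 3 with 17966 and CO F1 replicate 2 with 35677, in which 1 read was worth 48.2 and 18.8 units. OID libraries were deeper on average. Their mean tRF reads were 9.49 times the CO mean in F0, and 3.20 times it among sons (two-sided exact permutation test on log2 reads, p = 0.114 and p = 0.0857). Depth therefore moved with diet, and values from fits with depth as a covariate and from libraries of at least 100000 reads are given below. Because each library pools many sperm, fewer sperm carrying a fragment and less of it per sperm cannot be told apart.

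GlnCTG was a tRF of middle rank. Its mean value over all 15 libraries was 1739, rank 21 of 47, between AsnGTT (1924) and LeuTAG (1490), and its rank within a library ranged from 15 to 25. GlnTTG stood lower, with a mean of 508 and rank 30, between IleAAT (554) and ThrAGT (429), and within libraries it ranged from rank 25 to rank 37. The summed glutamine value was between 0.150% and 0.611% of all tRF values of a library. Both were thus detected in every library, with between 23 and 25488 reads for GlnCTG and between 4 and 7292 for GlnTTG. The value of GlnTTG in CO F0 replicate 3 rested on those 4 reads, just over the limit of 3 reads that a count of 0 allows.

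In F0 males, GlnCTG was higher in every OID library than in every CO library. Its values in CO males were 1303, 985 and 1109 in replicates 1 to 3, and in OID males they were 2688, 3331, 1572 and 4292 in replicates 1 to 4. On the deposited scale the CO libraries lay close together, while the OID libraries were spread widely. OID F0 replicate 3 lay nearest to the controls. The value of CO F0 replicate 3 rested on 23 reads. In shares of all tRF values the relative spread was larger in CO, with an SD of 36.7% of the mean against 20.2% in OID. The CO mean was 1132 ± 160 (SD, n = 3) and the OID mean 2971 ± 1142 (SD, n = 4), a ratio of 2.62. On the log2(value + 1) scale the difference was 1.31, with a 95% interval from 0.43 to 2.19 (limma, SE 0.38, adjusted p = 0.0862). The change did not pass the threshold of 0.05 after Benjamini-Hochberg adjustment over the 47 tRFs, nor did any other tRF (0.00% called). The two-sided exact permutation test of the log2 values gave p = 0.0571, which is the smallest value that 3 libraries against 4 allow. Before adjustment, GlnCTG was among the 10 tRFs (21.3%) with a limma p under 0.05, 6 of them higher and 4 lower in OID. It was also among the 5 tRFs (10.6%) in which every OID library was above every CO library. In 5 more tRFs every OID library was below every CO library, which gives the same smallest permutation p.

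The call for GlnCTG in F0 differed between fits. With all 4 groups in 1 limma fit the same difference of 1.31 had an adjusted p of 0.0306, and 6 tRFs (12.8%) were called. Limma-voom on the recovered reads gave 1.45 with an adjusted p of 0.0388 and called 5 tRFs. Leaving out OID F0 replicate 3 gave 1.58 with an adjusted p of 0.0273. In the other alternatives run, GlnCTG did not pass, and over all of them its log2 difference stayed between 0.96 and 1.58 and its adjusted p between 0.0273 and 0.239.

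GlnTTG was also higher on average in OID F0 males, but the groups overlapped. CO libraries had values of 389.9, 564 and 193, and OID libraries had 769, 795, 412 and 1065. The CO values were spread widely, and OID F0 replicate 3 with 412 lay below CO F0 replicate 2 with 564. The means were 382 ± 185 (SD, n = 3) and 760.4 ± 268 (SD, n = 4), a ratio of 1.99. The log2 difference was 1.04, with a 95% interval from -0.04 to 2.13 (limma, SE 0.47, adjusted p = 0.247), and the two-sided exact permutation p was 0.114. GlnTTG was therefore not called, and it was not among the tRFs with an unadjusted p under 0.05. The difference rested in part on CO F0 replicate 3, the library with 4 reads, since without it the log2 difference was 0.62. Limma-voom, which gives shallow libraries less weight, put it at 0.69 with an adjusted p of 0.401.

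**Figure D1:**
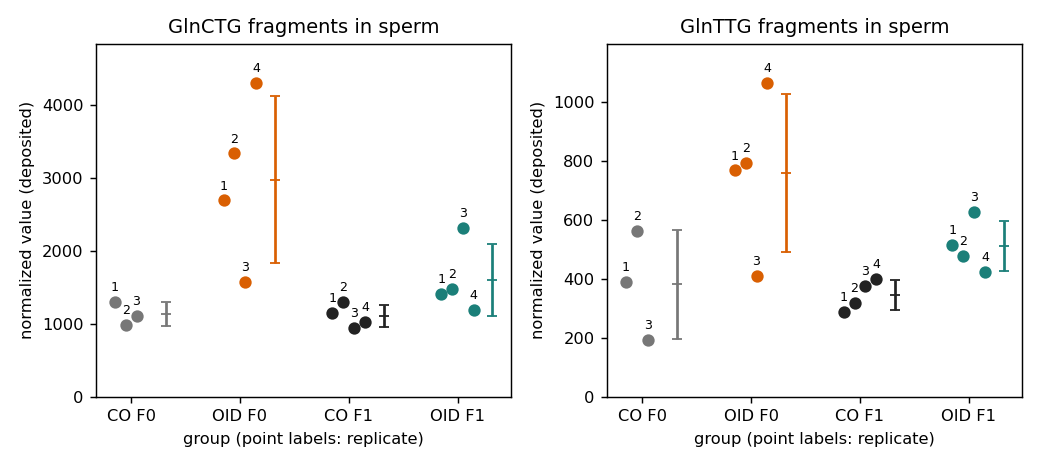
Deposited normalized values (vertical axes, from 0) of GlnCTG on the left and GlnTTG on the right in the 4 groups; each point is 1 library with its replicate number, and the bar beside it is the group mean ± SD. In F0 the OID libraries reach 4292 for GlnCTG and 1065 for GlnTTG, and in F1 every GlnTTG value of OID sons (425 or more) is above every value of CO sons (399 or less).

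In F1 males, the sons, GlnTTG separated the groups. CO sons had GlnTTG values of 288, 319.5, 375 and 399, and OID sons had 515, 479.6, 629 and 425. All OID libraries were above all CO libraries, with a gap between 399 and 425. That gap is narrow beside counting error. The value of CO F1 replicate 2 rested on 17 reads of 18.8 units each. The 95% Wilson interval of its share, which holds counting error only, ran from 0.0298% to 0.0763%. CO F1 replicate 4, the highest CO library, rested on 292 reads. Means were 345 ± 51.1 (SD, n = 4) and 512 ± 86.2 (SD, n = 4), a ratio of 1.48. The log2 difference of 0.56 had a 95% interval from 0.01 to 1.12 (limma, SE 0.25, unadjusted p = 0.0474, adjusted p = 0.272). The two-sided exact permutation test gave p = 0.0286, the smallest value that 4 against 4 allow. GlnTTG was 1 of the 8 tRFs (17.0%) with an unadjusted limma p under 0.05, 3 higher and 5 lower, and 1 of 2 (4.26%) with every OID library above every CO library. In 4 more tRFs every OID library was below every CO library. Full separation in either direction gives the same smallest two-sided permutation p. After adjustment limma called 0 of 47 (0.00%), and with all 4 groups in 1 fit or with limma-voom it also called 0.

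GlnCTG was higher on average in OID sons, with overlap. Its values were 1145, 1295, 947 and 1025 in CO sons and 1410, 1479, 2312 and 1193 in OID sons. Of the OID libraries, 3 were above the highest CO library, and OID F1 replicate 4 was below CO F1 replicate 2. The means were 1103 ± 152 (SD, n = 4) and 1598.5 ± 491 (SD, n = 4), a ratio of 1.45. The log2 difference was 0.50, with a 95% interval from -0.12 to 1.11 (limma, SE 0.28, adjusted p = 0.375), and the two-sided exact permutation p was 0.0571. The size of this difference depended on OID F1 replicate 3, the highest library, since without it the log2 difference was 0.31.

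Summed over both isoacceptors, the deposited glutamine values did not overlap between diets in either generation. In F0 the CO males had a sum of 1514 ± 198 (SD, n = 3) and the OID males one of 3731 ± 1406 (SD, n = 4), a ratio of 2.46 (two-sided exact permutation test on log2 values, p = 0.0571). Among sons the CO sum was 1448 ± 122 (SD, n = 4) and the OID sum 2111 ± 574 (SD, n = 4), a ratio of 1.46 (two-sided exact permutation test, p = 0.0286). The sons were barely apart, with 1618.8 in OID F1 replicate 4 and 1614.8 in CO F1 replicate 2. In that shallow CO library 1 read was worth 18.8 units, more than the gap. How often sums of other tRFs separate the diets was not counted. As a share of all tRF values the sum did not overlap in F0, with a ratio of 2.06, but it did in sons, where it ran from 0.207% to 0.283% in CO libraries and from 0.248% to 0.421% in OID libraries, a ratio of 1.30. The permutation tests of glutamine values above are among 24 exact permutation tests on measures of the members, and their p-values are not adjusted for that number. Exact tests of CO F0 against OID F1 and those under alternatives, some given below, come on top of it.

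Whether the diet difference was smaller in sons than in fathers could not be resolved. In the fit with an interaction of diet and generation, the F1 difference minus the F0 difference was -0.81 for GlnCTG (95% interval from -1.85 to 0.23, limma adjusted p = 0.657) and -0.48 for GlnTTG (from -1.60 to 0.64, limma adjusted p = 0.988). Of all 47 tRFs, 0 had an adjusted p under 0.05 for the interaction (0.00% called) and 2 an unadjusted p under 0.05. Rescaled to the sum without GlyGCC and GluCTC, the most abundant tRFs, the interaction was -0.38 for GlnCTG and -0.052 for GlnTTG. For GlnTTG it was also close to 0 with limma-voom (-0.08) and without CO F0 replicate 3 (-0.054). The intervals of both members span 0 and also hold differences as large as the F0 change itself.

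Against the other tRFs, both members were in the upper part of the changes in both generations. Ranked by log2 difference from the most raised, GlnCTG was number 4 and GlnTTG number 7 of 47 in F0, and they were numbers 10 and 8 in F1. The members had a median difference of 1.18 among fathers and 0.53 among sons, beside 0.02 and 0.08 for all 47 tRFs. Another scaling of the libraries shifts all tRFs alike, so ranks and distances from the median hold by construction, while the differences themselves move. With values rescaled to the sum of the tRFs, the median of all tRFs shifted by -0.13 in F0 and -0.15 in F1, and rescaled to the sum without GlyGCC and GluCTC it shifted by -0.35 and 0.08. With the latter scaling the F0 difference was 0.96 for GlnCTG and 0.70 for GlnTTG. Relative to the median of all tRFs, GlnCTG was higher by 1.29 in F0 and 0.42 in F1, and GlnTTG by 1.02 and 0.49. With log2 depth as a covariate the differences were 1.56 and 0.66 for GlnCTG and 0.72 and 0.63 for GlnTTG. Among libraries of at least 100000 reads they were 1.30 and 0.58 for GlnCTG and 0.62 and 0.53 for GlnTTG.

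**Figure D2:**
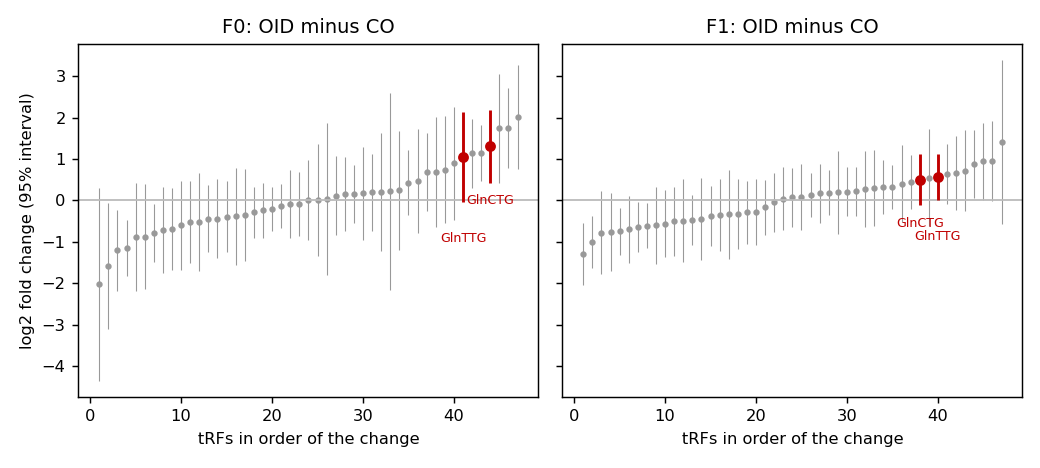
Log2 fold change of OID over CO with its 95% interval (vertical axis) for the 47 tRFs, placed in order of the change, in F0 on the left and F1 on the right, with the glutamine tRFs in red. GlnCTG (1.31) and GlnTTG (1.04) are numbers 4 and 7 from the top in F0, and in F1 they are at 0.50 and 0.56 among intervals of which most span 0.

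As shares of all tRF values, a measure that does not depend on the scaling factor, GlnCTG separated the diets in F0 and did not in F1. How many of the 47 tRFs separate the diets in shares was not counted. GlnCTG made up 0.170% ± 0.0624 (SD, n = 3) of the tRF values of CO F0 males and 0.374% ± 0.0756 (SD, n = 4) of those of OID F0 males, again without overlap (two-sided exact permutation test, p = 0.0571). Its share was 0.178% ± 0.0244 (SD, n = 4) among CO sons against 0.232% ± 0.0685 (SD, n = 4) among OID sons, with overlap (exact permutation p = 0.171). The GlnTTG share was 0.0583% ± 0.0314 (SD, n = 3) and 0.0975% ± 0.0267 (SD, n = 4) in F0 (exact permutation p = 0.114). CO sons had a GlnTTG share of 0.0571% ± 0.0167 (SD, n = 4) and OID sons one of 0.0744% ± 0.0110 (SD, n = 4) (exact permutation p = 0.171). Unlike the scaled values, the GlnTTG shares of sons overlapped, since CO F1 replicate 4 at 0.0793% was above all OID sons but replicate 3 at 0.0902%. The separation of the sons in GlnTTG was therefore seen on the deposited scale and not in shares of all tRF values. These shares depend on the abundant GlyGCC and GluCTC. With both left out of the denominator, the exact permutation p in sons was 0.0571 for GlnTTG and 0.0857 for GlnCTG. In F0 it was then 0.171 for GlnTTG and 0.0571 for GlnCTG. Single libraries weighed on the shares too, since the GlnCTG difference in sons was 0.0537 percentage points with all libraries and 0.0207 without OID F1 replicate 3. For GlnTTG in F0 it was 0.0392 percentage points, and 0.0212 without CO F0 replicate 3.

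Relative to the share, counting error was largest in the shallow libraries. For GlnCTG the 95% Wilson interval was 0.0853% to 0.192% in CO F0 replicate 3, on 23 reads, and 0.469% to 0.481% in OID F0 replicate 1, on 25488 reads. Such an interval holds counting error and nothing else, because PCR copies cannot be told from separate molecules. In F0 the GlnCTG interval of the OID library was above that of the CO library in 12 of 12 pairs of libraries. For GlnTTG this held in 7 of 12 pairs, and in the other 5 the intervals overlapped. All overlaps were with CO F0 replicates 1 and 2, which are not among the shallowest libraries. The interval of CO F0 replicate 3, on 4 reads, reached 0.0572% and lay below all OID intervals, the lowest of which began at 0.0713%. The count of 7 thus rests in large part on that library. In sons the OID interval was above in 11 of 16 pairs and below in 1 for GlnCTG, and above in 8 of 16 and below in 1 for GlnTTG. The pairs reuse the same libraries and are not independent. Such pairs were not counted for the other tRFs, so these counts do not set the members apart from them. Over the 15 libraries, Spearman's rho with depth was 0.296 for the log2 value of GlnCTG and 0.264 for GlnTTG, while depth also differs between the groups. Within groups, Pearson's r with log2 depth was -0.338 for GlnCTG, 0.152 for GlnTTG and -0.488 for the log2 ratio of both, and it was 0.188 for the GlnCTG share and 0.486 for the GlnTTG share. These are descriptions over 15 libraries.

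**Figure D3:**
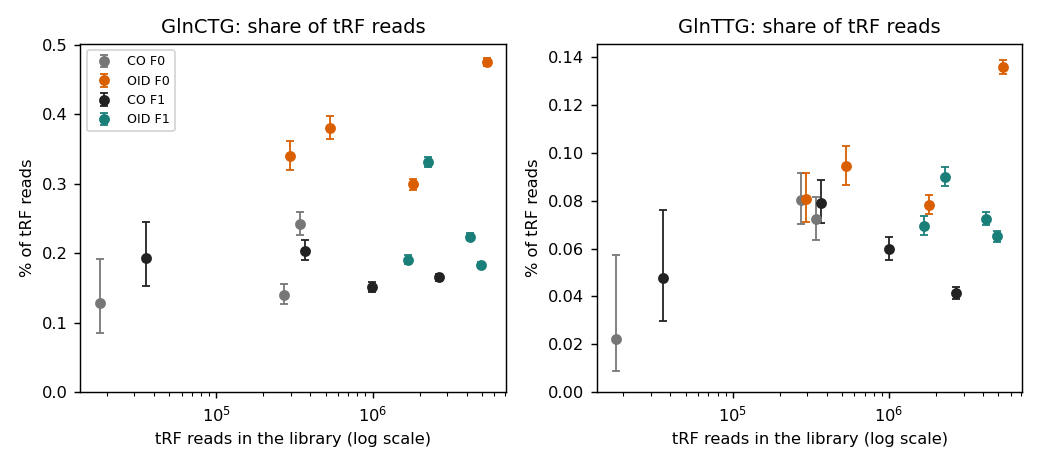
Share of GlnCTG (left) and GlnTTG (right) in the tRF reads of a library, in percent with its 95% Wilson interval, against the number of tRF reads on a log scale; each point is 1 of 15 libraries, coloured by group. The 4 OID F0 libraries lie above 0.29% for GlnCTG over the whole range of their depth, while the GlnTTG point of the shallowest library, at 17966 reads, has an interval from 0.00866% to 0.0572%.

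Of the isoacceptors, GlnCTG had the higher value in 15 of 15 libraries. The ratio of GlnCTG to GlnTTG was 3.34, 1.75 and 5.74 in CO F0 males and 3.49, 4.19, 3.81 and 4.03 in OID F0 males. The most extreme ratios at both ends were thus CO F0 libraries, one of them the shallowest. In sons the ratio was 3.98, 4.05, 2.52 and 2.57 in CO and 2.74, 3.08, 3.67 and 2.80 in OID libraries, with complete overlap. CO F0 males had a mean ratio of 3.61 ± 2.01 (SD, n = 3) and OID F0 males one of 3.88 ± 0.301 (SD, n = 4). Among sons the mean ratio was 3.28 ± 0.852 (SD, n = 4) with CO fathers and 3.08 ± 0.426 (SD, n = 4) with OID fathers. The number of annotated loci has a ratio of 1.67, below the ratio in every library, and it is given for scale only, since loci differ in how much tRNA they yield.

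No diet difference of the ratio was detectable. The log2 ratio differed by 0.27 in F0 and by -0.06 in F1 between OID and CO (two-sided exact permutation test, p = 0.629 and p = 0.829). The F0 value rested on single control libraries, being 0.68 without CO F0 replicate 3 and -0.17 without CO F0 replicate 2. In OID males the ratio was lower in F1 than in F0 by a log2 difference of -0.34 (exact permutation p = 0.0571), with overlap between 3.49 and 3.67, and in CO males the difference was -0.01 (exact permutation p = 0.914).

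Counted in reads, GlnCTG made up between 63.6% and 85.2% of the glutamine reads, with a mean of 76.6% ± 5.18 (SD, n = 15). The 4 OID F0 libraries lay within a narrow band, 79.5% ± 1.29 (SD, n = 4), between 77.8% and 80.7%. In CO F0 the shares were 77.0%, 63.6% and 85.2%, the last on 27 glutamine reads with a Wilson interval from 67.5% to 94.1%. CO F0 replicate 2, with an interval from 59.7% to 67.4% on 599 reads, had an interval below those of all other libraries. CO sons had 75.9% ± 4.79 (SD, n = 4) and OID sons 75.3% ± 2.42 (SD, n = 4).

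**Figure D4:**
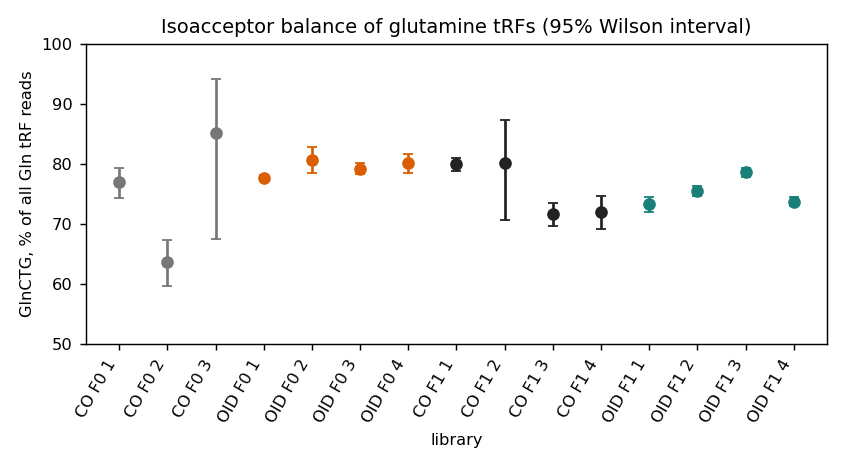
GlnCTG as a percentage of all glutamine tRF reads in each of the 15 libraries (vertical axis, not starting at 0), with 95% Wilson intervals, coloured by group. The OID F0 libraries lie between 77.8% and 80.7%, CO F0 replicate 2 is lowest at 63.6%, and CO F0 replicate 3 has the widest interval, from 67.5% to 94.1%.

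The table holds 13 pairs of isoacceptors that, like the glutamine pair, differ by C or T at the first anticodon base. Within groups, the log2 ratio of the glutamine pair had a pooled SD of 0.43, the lowest but 1 of the 13. Proline (ProCGG and ProTGG) had 0.27, lysine 0.50, serine 0.55 and glutamate 0.62, and the largest was 1.51 for glycine (GlyCCC and GlyTCC). Between diets the glutamine ratio moved by 0.27 and -0.06 in F0 and F1, while that of lysine (LysCTT and LysTTT) moved by -1.22 and -0.60 and that of serine by 1.38 and 0.83. These are descriptions of 13 pairs with different depths behind them, and no test was made of whether glutamine differs from the others. The authors added to the unique reads of each tRNA its shared reads, weighted by alignment score. How many reads GlnCTG and GlnTTG share is not shown by the values, and their part in the ratio was not tested.

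**Figure D5:**
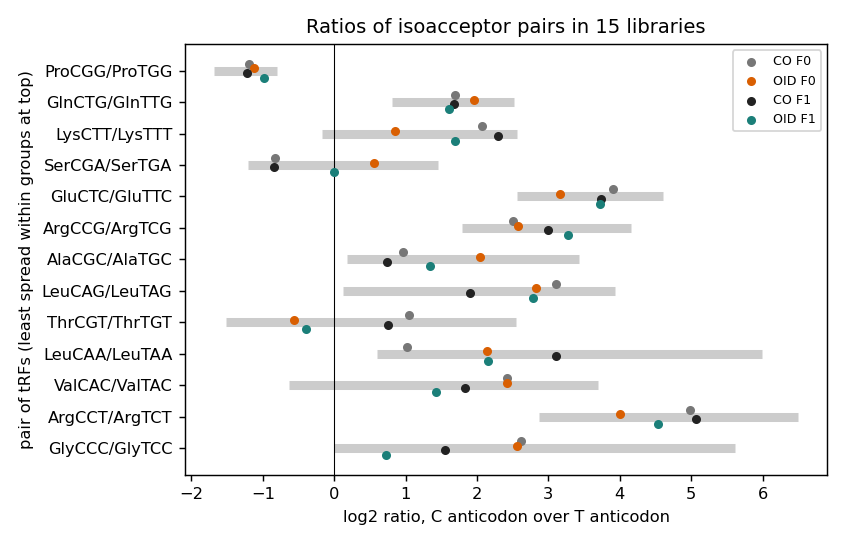
Log2 ratio of the tRF with C over that with T at the first anticodon base (horizontal axis) for 13 isoacceptor pairs, ordered by the spread within groups; grey bars span the 15 libraries and points are group means. The glutamine pair, second from the top, has group means between 1.61 and 1.95, while the lysine means run from 0.85 in OID F0 to 2.29 in CO F1.

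Between generations, neither member differed by more than the spread in CO males. The F1 mean was 0.974 times the F0 mean for GlnCTG and 0.904 times for GlnTTG, and the log2 differences were -0.04 (95% interval from -0.84 to 0.77) and -0.03 (from -0.97 to 0.92; limma adjusted p = 0.968 for both). Both signs turned to 0.12 and 0.13 after rescaling to the sum of the tRFs. In males of the OID line the F1 mean was 0.538 times the F0 mean for GlnCTG and 0.674 times for GlnTTG. The log2 differences were -0.85 (from -1.64 to -0.06, limma unadjusted p = 0.0370, adjusted p = 0.249) and -0.50 (from -1.26 to 0.25, limma adjusted p = 0.450). GlnCTG was 1 of 8 tRFs (17.0%) with an unadjusted p under 0.05 in that comparison, against 1 of 47 (2.13%) in CO males, and 0 were called after adjustment (0.00%) in either. Fathers and sons of the OID line also differed in their own diet, so that generation and diet eaten cannot be told apart there.

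By deposited values the 4 groups had the same order for both members, lowest in CO F1, then CO F0, OID F1 and OID F0. In shares the CO groups changed places for GlnCTG, with 0.170% in CO F0 and 0.178% in CO F1, but not for GlnTTG. Neighbours in the order by values all overlapped. For GlnCTG the exact permutation p was 0.800 between CO F1 and CO F0, 0.114 between CO F0 and OID F1 and 0.0571 between OID F1 and OID F0. For GlnTTG the exact permutation p for the same neighbours was 1, 0.343 and 0.171.

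Lysine and glutamate tRNAs with the anticodons TTT and TTC carry the same kind of wobble modification as GlnTTG. In F0, the mean of LysTTT was 3968 ± 505 (SD, n = 3) in CO libraries and 8948 ± 2379 (SD, n = 4) in OID libraries, a log2 difference of 1.15 that did not pass (limma adjusted p = 0.0733). GluTTC had a difference of 0.90 (limma adjusted p = 0.437). Of these 3 tRFs, 0 passed after adjustment and 1 had an unadjusted p under 0.05 in F0 (21.3% of all tRFs had one), with a median of 1.04 beside 0.02 for all tRFs. LysTTT was called in F0 with all 4 groups in 1 fit and with limma-voom, and GlnTTG in neither (limma adjusted p = 0.0670 and 0.401). GlnCTG, ArgCCG, ValAAC and ValTAC were also called in both fits. In sons LysTTT differed by -0.04 (limma adjusted p = 0.913) and GluTTC by 0.19 (limma adjusted p = 0.740), so that GlnTTG was the only tRF of the 3 with an unadjusted limma p under 0.05 (17.0% of all tRFs had one). Of the glutamate tRFs, GluCTC differed by 0.15 in F0 and 0.19 in F1 (limma adjusted p = 0.871 and 0.599), and 0 of 2 glutamate tRFs had an unadjusted p under 0.05 in either generation.

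Across the 15 libraries, the tRF most like GlnCTG in log2 value was ValAAC, with a Spearman's rho of 0.750, followed by GlnTTG (0.707) and ValCAC (0.661), among 44 tRFs with enough reads. For GlnTTG the order was GlnCTG (0.707), GluCTC (0.564) and ValAAC (0.543). In shares of the tRF values, which take out the scaling factor, each glutamine tRF was the one most like the other, with a rho of 0.782. These correlations are over libraries that share groups and differ in depth, and they are given as a description.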

How the data were processed

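Per the study's methods, Trimmomatic was used for trimming and GRCm38/mm10 for alignment, tRNAs were annotated with blastn, and shared reads, weighted by alignment score, were added to unique reads. Bowtie2 2.3.4.1 and DESeq2 are named in the submitters' processing notes without a role. The authors deposited 1 table of normalized signal, which the paper calls TPM. It was not treated as TPM because 1 library summed to over 1000000. The table's 4 mature tRNA and 164 miRNA entries were not used here, and whether they carry the same scaling factor was not tested. Reads were recovered from the deposited signal by subtracting 0.5 and searching each library for the largest unit that divides all its values. With it, 705 of 705 tRF values (100%) came out whole within 0.01 reads. Depth ranged from 17966 to 5363471 tRF reads, and a count of 0 allows up to 3 reads.

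Groups and replicate numbers came from the sample labels. Groups were compared with limma 3.58.1 (R 4.3.3, lmFit and eBayes without trend) on log2(value + 1) over all 47 tRFs within the groups compared, with Benjamini-Hochberg adjustment. The threshold was 0.05. Because of the added 1, changes of low values are understated. For single measures, exact permutation tests (two-sided) were run in scipy 1.17.1. Intervals of shares are 95% Wilson intervals. The fits were run on simulated data with changes larger than those of the members, so their power for changes of the members' size was not tested. Chi-square per degree of freedom was 30.8 or more for each of the 21 within-group pairs of libraries, so none was taken for a repeat of another. Named tRFs are the members, tRNAs with the same wobble modification, the glutamate tRFs, the 13 isoacceptor pairs, the 3 tRFs most like each member among those with a median of at least 10 reads, and neighbours in rank. Members and lists were chosen with earlier results of these data known. Loci are from RefSeq on GRCm38.p6, set against GENCODE M21. No sequence is printed, since the reference tables used here held none for these tRNAs. Alternatives were a pseudocount of 0.1 or 10, only tRFs with a mean value of at least 100, 1 fit of all 4 groups, 3 scalings, an intensity trend, limma-voom on recovered reads, depth as a covariate, libraries of at least 100000 reads, the replicate number as a block, each library left out, and other forms of the share and ratio. Plots were made in matplotlib 3.10.9 (Python 3.11.15).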

Additional observations from a re-analysis of the deposited data

How the results depend on the processing

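Of 308 values computed under alternatives for 18 results, 287 kept their direction and their side of the threshold, or for counts stayed within 1.5 times, and the cause of the other changes was not tested. Part of these could not cross the threshold, since an exact permutation test of 3 libraries against 4 gives at least p = 0.0571. This holds for all ratios and shares in F0, and for those in F1 with a library left out or among libraries of at least 100000 reads. The replicate block of the F1 ratio, a permutation test of 4 pairs, could not cross the threshold either. For them only the direction could change. In F0 the number of tRFs called was 6 with all 4 groups in 1 fit and 5 with limma-voom, and it ranged from 0 to 2 when each library was left out, being 1 without CO F0 replicate 1 and 2 without OID F0 replicate 3. In F1 it ranged from 0 to 1 with a library left out, being 1 without CO F1 replicate 1. GlnCTG in F0 passed with all 4 groups in 1 fit (1.31, limma adjusted p = 0.0306), with limma-voom (1.45, adjusted p = 0.0388) and without OID F0 replicate 3, and ranged from 1.10 to 1.58 with a library left out. Differences near 0 changed sign. GlnCTG between generations of CO males was 0.12 after rescaling to the tRF sum and 0.00692 with depth as a covariate, and ranged from -0.13 to 0.0681 with a library left out. GlnTTG in that comparison was 0.13 after rescaling and ranged from -0.45 to 0.32 with a library left out. The log2 ratio of the isoacceptors between diets ranged from -0.17 to 0.68 in F0 and from -0.18 to 0.0492 in F1 with a library left out, and was 0.0492 in F1 among libraries of at least 100000 reads. With the replicate number as a block, GlnCTG was 1.10 in F0 and 0.50 in F1 and GlnTTG 0.85 and 0.56. This replicate block changed no call. In F0 the block fit left out OID F0 replicate 4, which has no CO library of its number. Leaving out that library without a block gave the same 1.10 and 0.85. Same-numbered libraries had correlations of their deviations between -0.145 and 0.233 in F0 and between -0.267 and 0.301 in F1, so the numbers were not taken as pairs. Precision was limited by the 2 libraries under 100000 tRF reads, both CO, and by the 3 CO libraries of F0.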
